A study of Rattus norvegicus with 9 samples.

Results

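Transcripts of 8 genes of the phosphoinositide kinase pathway were followed in synovium, the membrane that lines joints, from Lewis rats. The members were taken by gene symbol and are the 4 class I catalytic subunits of PI3K (Pik3ca, Pik3cb, Pik3cd and Pik3cg), the regulatory subunit Pik3r1, the kinases Akt1 and Akt2, and the phosphatase Inpp4b. Each symbol matched 1 row of the deposited table, so 8 of 32883 genes are described. All 8 passed the filter on low counts, which kept 15068 genes.

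RNA was sequenced from 9 libraries, 3 in each of the groups labelled TZG, AIA and NC. The labels do not spell these names out. From the series title and design text, which name rheumatoid arthritis and Tianhe zhuifeng liquid extract, TZG was read as the extract group, AIA as the arthritis model and NC as the control. No dose, time, age or sex is given in the labels, nor whether TZG animals had arthritis or whether each library stands for its own animal. The p-values therefore measure library-to-library spread only, and that spread could be technical. Of the 9 libraries, 5 carry a number that is a sample title in the matching group, and 4 (G31 and G48 in TZG, M2 and M8 in AIA) were placed by the letter of their column.

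Class I PI3K enzymes add a phosphate to the membrane lipid phosphatidylinositol bisphosphate. The resulting trisphosphate recruits the kinase AKT to the membrane, where it is activated and promotes growth, survival and glucose uptake. The catalytic subunits Pik3ca and Pik3cb are made in most cell types, whereas Pik3cd and Pik3cg are known mainly from leukocytes. Phosphatases end the signal: Inpp5d (SHIP1) acts on the trisphosphate, and Inpp4b removes a phosphate from the bisphosphate that Inpp5d leaves.

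Library totals ran from 12536231 to 16402126 reads. Of the synovial fibroblast markers, among them the lubricant gene Prg4, none of the 10 was at 0 in any library, and their summed CPM (reads scaled to library size with TMM factors) was 7239 in NC library C61 and between 15920 and 70580 in the other 8. Some libraries stood apart in tissue content. In C61 the summed CPM of 8 skeletal muscle genes was 28310, above its fibroblast sum. The muscle sum was 117 in C56 and 1479 in C59, against 24.7 to 61.5 in TZG and 25.8 to 54.8 in AIA. Every NC library was thus above every TZG and AIA library in muscle transcripts, and leaving out C61 does not remove this difference. The sum of 8 cartilage genes was 7043 CPM in TZG library G48 and at most 458 CPM elsewhere, and the sum of 9 erythroid and marrow genes was highest in AIA library M8, at 1136 CPM. Each call was therefore also made without C61, M8 and G48. The marrow sum was 132 to 373 CPM in TZG and 139 to 1136 CPM in AIA, against 45.9 to 123 CPM in NC. Every TZG and AIA library was thus above every NC library in marrow transcripts, and leaving out M8 does not remove this difference.

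The leukocyte-enriched subunits Pik3cd and Pik3cg had higher values in every TZG and AIA library than in any NC library, and Inpp4b had higher values in AIA than in both other groups, without overlap. Libraries did not overlap for 20.5% of all tested genes in AIA against NC, 23.4% in TZG against AIA and 32.6% in TZG against NC. Pik3cd was 3.34-fold higher in TZG than in NC and was the single member to pass the test over all genes. In that comparison 10.3% of all tested genes passed, and without C61, M8 and G48 Pik3cd did not pass. Pik3cg and Inpp4b did not pass this test in any comparison. Pik3ca, Pik3cb and Akt1 differed by less than 1.3-fold in every comparison. The windows around the annotated start sites of Pik3cd, Pik3cg and Inpp4b are shown from the RefSeq table for GRCr8. That table covers 7 of the 8 members and has no entry for Pik3cb. Each window runs 5′ to 3′ on the strand of the gene from 250 bases before to 50 bases after the start site. Capitals mark GAGGAA or its reverse complement TTCCTC, a core recognised by the leukocyte factor PU.1 among other ETS proteins.
Pik3cd (chr5:165403919-165404218, minus strand): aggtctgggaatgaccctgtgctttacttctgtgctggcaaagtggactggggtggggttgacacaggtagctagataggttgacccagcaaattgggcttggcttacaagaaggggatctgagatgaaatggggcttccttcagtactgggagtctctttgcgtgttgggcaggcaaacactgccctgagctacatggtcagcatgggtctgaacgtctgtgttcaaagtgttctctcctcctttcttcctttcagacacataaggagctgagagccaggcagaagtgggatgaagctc
Pik3cg (chr6:54529460-54529759, minus strand): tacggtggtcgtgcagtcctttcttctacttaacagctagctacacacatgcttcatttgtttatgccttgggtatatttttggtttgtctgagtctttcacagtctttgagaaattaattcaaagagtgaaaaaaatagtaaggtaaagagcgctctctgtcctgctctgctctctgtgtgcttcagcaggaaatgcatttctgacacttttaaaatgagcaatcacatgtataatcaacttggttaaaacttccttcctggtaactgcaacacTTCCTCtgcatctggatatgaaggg
Inpp4b (chr19:43574362-43574661, minus strand): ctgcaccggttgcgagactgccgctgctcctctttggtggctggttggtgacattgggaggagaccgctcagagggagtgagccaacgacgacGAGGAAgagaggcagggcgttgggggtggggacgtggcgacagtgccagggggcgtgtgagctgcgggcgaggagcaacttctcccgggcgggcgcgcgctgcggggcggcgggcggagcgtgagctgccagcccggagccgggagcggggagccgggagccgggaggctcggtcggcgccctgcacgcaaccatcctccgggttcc
The Inpp4b window held 1 match, from 157 to 152 bases before the start site, and the Pik3cd window held no match to these letters. The Pik3cg match lay at bases 25 to 30, counted from 0 at the first base after the leading 250. It depends on the window length, which was set after a first scan. That scan used 280 bases, the last 30 of them from base 0 on, so that base 30 fell outside. It found 0 matches for Pik3cg, and the match appeared when the window was extended to the 300 bases of the table. Among the 7 members, Pik3r1 and Inpp4b held 1 match each in both windows, and Pik3cg was the one member to gain a match. A match on either strand was present in 25.8% of all 33469 windows at 280 bases and in 27.6% at 300 bases, so holding one is common. The 2 leukocyte subunits had few CpG dinucleotides, 2 for Pik3cd and 3 for Pik3cg, against 33 for Inpp4b and a median of 7 over all windows. The window of Pik3r1 was also rich in CpG, with 31. Those of Pik3ca and Akt2 held 3 each and that of Akt1 held 9, so among these windows a low count was not particular to the leukocyte subunits. Whether any window holds the promoter used in synovium was not tested, so the counts describe the windows only. Binding was not measured in these data, and the Pik3cd start site of the table lies inside its RefSeq gene.

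**Figure D1:**
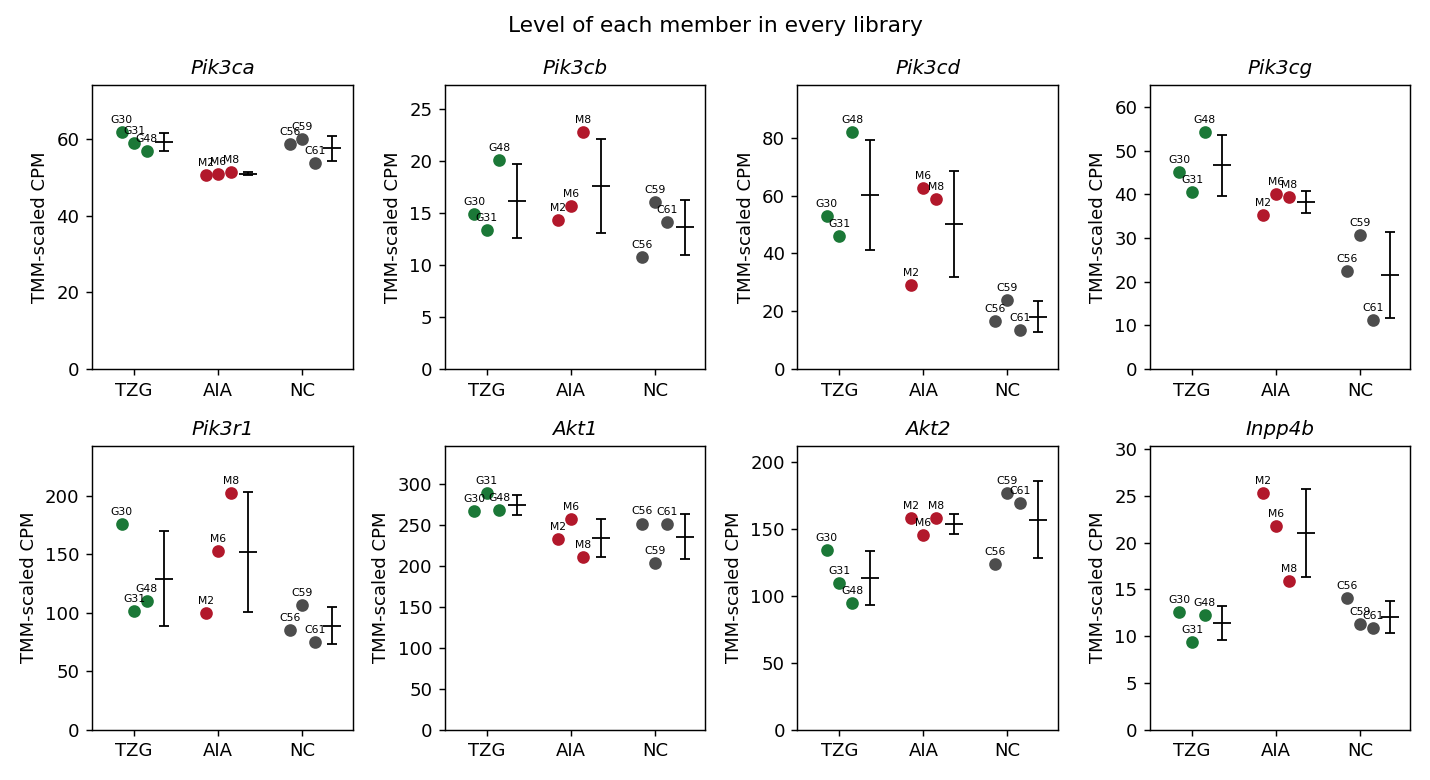
TMM-scaled CPM (y axis, linear from 0) of the 8 members in every library, grouped as TZG, AIA and NC. Points are libraries, and the bar beside each group is the mean with its SD (n = 3). For Pik3cd and Pik3cg all TZG and AIA points lie above all NC points, and for Inpp4b all AIA points lie above both other groups.

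Levels of different genes were compared per length, as FPKM (reads scaled by gene length and library total) recomputed from the counts. The AKT kinases were the most abundant members, with medians over the 9 libraries of 104 FPKM for Akt1 and 75.4 FPKM for Akt2. The regulatory subunit Pik3r1 followed at 24.2 FPKM. The catalytic subunits lay lower, with medians of 10.1 FPKM for Pik3cd, 8.52 for Pik3ca, 6.13 for Pik3cg and 3.23 for Pik3cb, and Inpp4b was lowest at 2.71. Neighbours in this order were not always separated by their spread. In TZG libraries Pik3cd averaged 12.7 ± 3.26 FPKM and Pik3ca 9.46 ± 0.851 (SD, n = 3 each). In NC libraries Pik3cd, Pik3cg and Pik3cb averaged 3.65 ± 1.21, 3.24 ± 1.57 and 2.71 ± 0.526 FPKM, so that the order of these 3 is not resolved there, while Pik3ca at 8.71 ± 0.936 FPKM was the highest catalytic subunit in each NC library.

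Pik3cd encodes the delta catalytic subunit, which acts downstream of antigen and cytokine receptors in lymphocytes and myeloid cells. The gene (ENSRNOG00000016846) lies on chromosome 5 at 166602053 to 166628028 in the deposited table, whose build is not given in the sources used here. It stood at 52.8, 45.95 and 81.9 CPM in TZG libraries G30, G31 and G48, at 29.1, 62.6 and 58.65 CPM in AIA libraries M2, M6 and M8, and at 16.7, 23.9 and 13.4 CPM in NC libraries C56, C59 and C61. Every TZG and AIA library was thus above every NC library, and TZG and AIA overlapped. M2 was the lowest of the AIA libraries and G48 the highest of TZG.

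In TZG against NC Pik3cd rose, with means of 60.2 ± 19.1 and 18 ± 5.37 CPM (SD, n = 3 each; log2 fold change 1.74 ± 0.35 SE, edgeR quasi-likelihood test with Benjamini-Hochberg adjustment over all genes, adjusted p = 0.023). It was the 1 member past the threshold of 0.05 in this comparison, in which 10.3% of all tested genes passed. The call was made in 6 of the 9 fits with 1 library left out and was lost without G30, C56 or C61, at adjusted p of up to 0.076. Without C61, M8 and G48 the log2 fold change was 1.29 (edgeR adjusted p = 0.068). In AIA against NC the means were 50.1 ± 18.3 and 18 ± 5.37 CPM, with a log2 fold change of 1.48 (95% interval 0.68 to 2.27) that did not pass in edgeR (adjusted p = 0.12) and did in DESeq2 (adjusted p = 0.0024). In the authors' deposited table Pik3cd has q-values of 0.00064 in AIA against NC and 9.14e-06 in TZG against NC. TZG and AIA did not differ beyond their spread (log2 fold change 0.26, 95% interval -0.51 to 1.04, edgeR adjusted p = 0.76).

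Pik3cg encodes the gamma catalytic subunit, which G protein-coupled receptors such as chemokine receptors activate. The gene (ENSRNOG00000009385) lies on chromosome 6 at 51465908 to 51498337 in the deposited table. It stood at 45.1, 40.6 and 54.2 CPM in TZG libraries G30, G31 and G48, at 35.3, 40.2 and 39.3 CPM in AIA libraries M2, M6 and M8, and at 22.5, 30.7 and 11.2 CPM in NC libraries C56, C59 and C61. The groups did not overlap in any of the 3 comparisons, and C61 was the lowest library by a wide margin.

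Pik3cg did not pass in edgeR in any comparison. In TZG against NC its log2 fold change was 1.11 ± 0.31 SE (edgeR adjusted p = 0.053), and DESeq2 and limma-voom placed it past the threshold, with adjusted p of 0.006 and 0.045. With 1 library left out this value ran from 0.82 to 1.46, and edgeR called it without C59 or C61. Without C61, M8 and G48 it was 0.69 (edgeR adjusted p = 0.039). In AIA against NC the log2 fold change was 0.83 (95% interval 0.13 to 1.52, edgeR adjusted p = 0.25), and without C61, M8 and G48 it was 0.5. In TZG against AIA it was 0.29 (95% interval -0.40 to 0.97, edgeR adjusted p = 0.71).

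**Figure D2:**
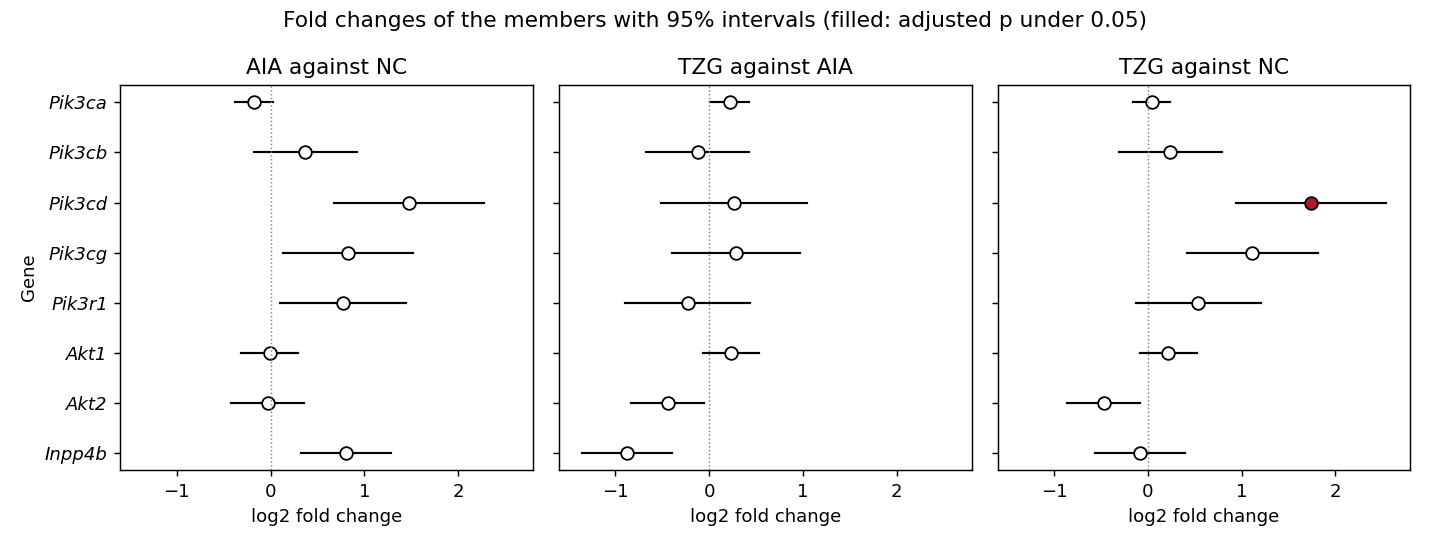
Log2 fold changes of the 8 members (x axis) with 95% intervals in 3 comparisons, from 3 libraries a group. A filled point passed at an adjusted p under 0.05: Pik3cd in TZG against NC, at 1.74, is the one filled point.

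Pik3ca, the ubiquitous alpha subunit coupled to growth factor and insulin receptors, varied least of the catalytic subunits. The gene (ENSRNOG00000056371, chromosome 2 at 118831350 to 118861454) stood at 61.85, 59 and 57.05 CPM in TZG libraries G30, G31 and G48, at 50.8, 50.8 and 51.6 CPM in AIA libraries M2, M6 and M8, and at 58.9, 60.2 and 53.9 CPM in NC libraries C56, C59 and C61. AIA lay below both other groups without overlap, by a small amount: the log2 fold change was -0.18 in AIA against NC (edgeR adjusted p = 0.4) and 0.22 in TZG against AIA (edgeR adjusted p = 0.38).

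Pik3cb, the beta subunit, which responds to both receptor tyrosine kinases and G protein-coupled receptors, overlapped between all groups. Its row (ENSRNOG00000016384, chromosome 8 at 107275725 to 107380933) held 160 to 330 reads a library. Levels were 14.9, 13.4 and 20.1 CPM in TZG, 14.3, 15.7 and 22.7 CPM in AIA, and 10.8, 16 and 14.1 CPM in NC. M8 and G48, the libraries rich in marrow and in cartilage transcripts, were the highest of their groups. The intervals of the 3 log2 fold changes all included 0, with edgeR adjusted p from 0.54 to 0.86.

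The mix of class I catalytic transcripts differed between groups. Of their summed FPKM, Pik3cd and Pik3cg together made up 58.5%, 56.9% and 66.0% in TZG libraries G30, G31 and G48, 51.4%, 63.2% and 58.9% in AIA libraries M2, M6 and M8, and 37.8%, 43.3% and 28.5% in NC libraries C56, C59 and C61. The group means were 60.5 ± 4.88% in TZG, 57.8 ± 6.01% in AIA and 36.5 ± 7.49% in NC (SD, n = 3 each). Every TZG and AIA library held more leukocyte subunit than every NC library, and with 1 library left out the NC mean ran from 33.2% to 40.6%. Pik3cd made up 34.5% to 44.4% in TZG, 27.1% to 42.9% in AIA and 17.6% to 22.2% in NC, while Pik3ca made up 23.2% to 33.1% in TZG, 25.95% to 35.4% in AIA and 41.9% to 53.1% in NC. The summed level was 32.8 ± 3.8 FPKM in TZG, 28.5 ± 5.03 in AIA and 18.3 ± 3.91 in NC. No test was made on these shares, since they are built from the members.

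**Figure D3:**
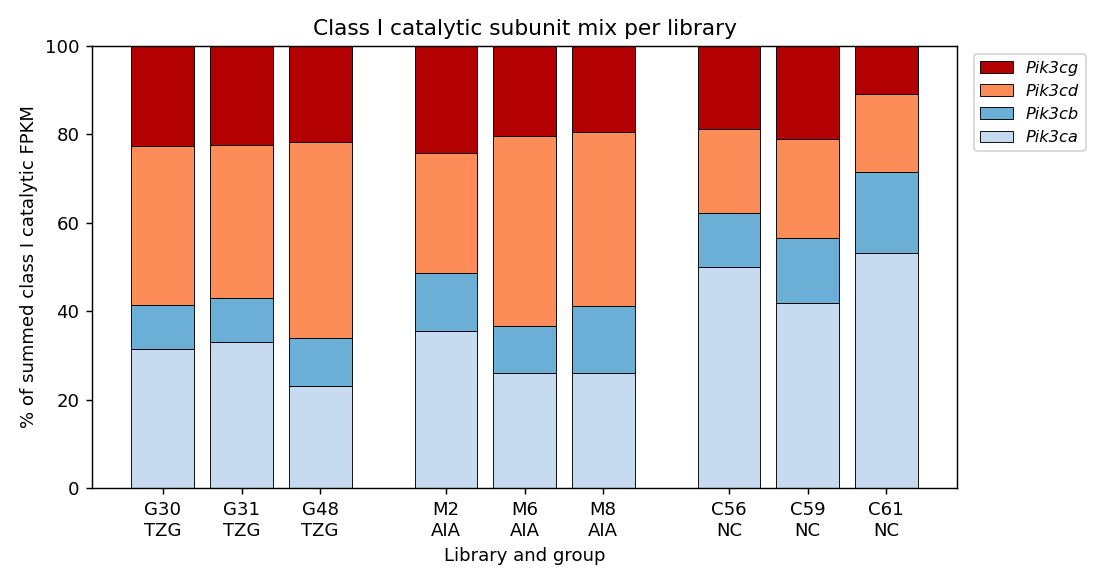
Share of each class I catalytic subunit in their summed FPKM (y axis, percent) for each library, ordered as TZG, AIA and NC. The Pik3cd and Pik3cg segments together reach 51.4% to 66.0% in TZG and AIA bars and 28.5% to 43.3% in NC bars.

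Leukocyte transcripts moved with these subunits. The summed level of 6 genes of all leukocytes (Ptprc, which encodes CD45, with Coro1a, Laptm5, Cd53, Lcp1 and Arhgdib), all of them with reads in every library, was 914 to 1465 CPM in TZG, 583 to 1168 CPM in AIA and 278 to 500.4 CPM in NC. In TZG against NC 3 of these 6 passed in edgeR, all higher, and in AIA against NC 0 passed in edgeR, 5 had an unadjusted p under 0.05, 2 passed in DESeq2 and 0 in limma-voom. The counts here and below stand beside these shares of all genes. In AIA against NC they were 0.0133% in edgeR, 15% at an unadjusted edgeR p under 0.05, 6.26% in DESeq2 and 0.00664% in limma-voom. In TZG against NC they were 10.3% in edgeR, 19.7% in DESeq2 and 7.83% in limma-voom. Among the leukocyte lists neutrophil genes differed most, at 449 to 4166 CPM in TZG and 304 to 3121 CPM in AIA against 6.71 to 11.7 CPM in NC for the sum of 10. The upper ends were G48 and M8, and the other TZG and AIA libraries stood at 304 to 861 CPM. Of these 10 genes, Mmp8, Fpr1, Camp and Ltf had no read in at least 1 NC library, and Ltf had at most 1 read anywhere. Of 9 tested, edgeR called 0 in AIA against NC, where 9 had an unadjusted p under 0.05, DESeq2 called 7 and limma-voom 0. In TZG against NC edgeR called 8, DESeq2 7 and limma-voom 2, all higher. The summed macrophage list was 1111 to 1355 CPM in TZG, 856 to 1466 CPM in AIA and 319 to 1560 CPM in NC, with Marco at 0 in every library. T and NK cell genes, with Cd3d and Cd3g at 0 in at least 1 library, summed to 113 to 208 CPM in TZG, 132 to 199 CPM in AIA and 42.4 to 202 CPM in NC, and B and plasma cell genes to 178 to 251, 169 to 338 and 117 to 162 CPM in the same groups. These sums overlap for T and NK cells, but gene by gene 8 of the 10 were higher without overlap in AIA against NC, and 8 in TZG against NC. No overlap in either direction held for 20.5% and 32.6% of all tested genes in these comparisons, in that order. In AIA against NC 0 of the 10 passed in edgeR, 8 had an unadjusted p under 0.05, and DESeq2 called 5 and limma-voom 0, while edgeR called 5 in TZG against NC, all higher. Of 7 B and plasma cell genes, 5 were higher without overlap in AIA against NC and 4 in TZG against NC, where edgeR called 1. Macrophage genes did not share this: of 9 tested, 0 were without overlap in AIA against NC and 2, both higher, in TZG against NC. EdgeR called 0 of them in either comparison.

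Set against the leukocyte sum, Pik3cd and Pik3cg each spanned a narrower range, on a fold scale, than in CPM. Per 100 CPM of the 6 leukocyte genes, Pik3cd stood at 4.97, 5.03 and 5.59 CPM in TZG libraries G30, G31 and G48, at 4.99, 7.29 and 5.02 CPM in AIA libraries M2, M6 and M8, and at 3.84, 4.77 and 4.83 CPM in NC libraries C56, C59 and C61. All TZG and AIA libraries were still above all NC libraries, by a smaller margin. Pik3cg stood at 4.25, 4.45 and 3.7 CPM in TZG, 6.06, 4.68 and 3.36 CPM in AIA, and 5.18, 6.14 and 4.04 CPM in NC on the same scale, and here the groups overlapped. Pik3ca stood at 3.89 to 6.46 CPM in TZG, 4.41 to 8.72 CPM in AIA and 12 to 19.4 CPM in NC. In bulk tissue, more cells of a type and more RNA per cell cannot be told apart, and the part of leukocyte content in the Pik3cd and Pik3cg results was not tested further.

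**Figure D4:**
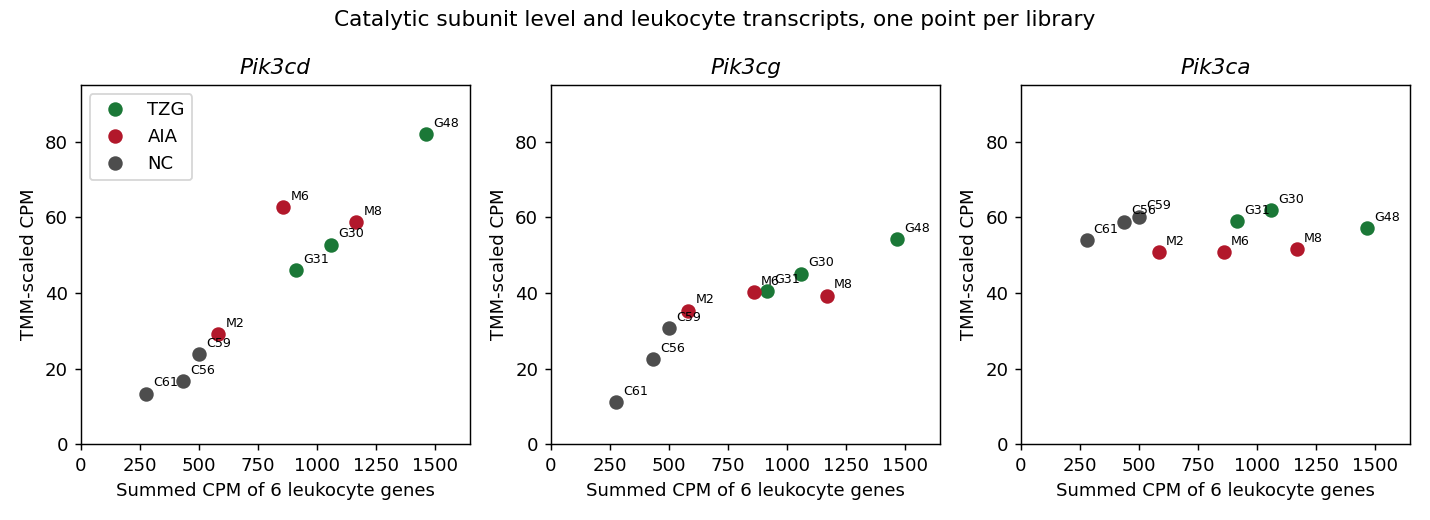
TMM-scaled CPM of Pik3cd, Pik3cg and Pik3ca (y axis) against the summed CPM of 6 leukocyte genes (x axis), 1 point per library, coloured as TZG, AIA and NC. Pik3cd spans 13.4 to 81.9 CPM and is lowest in C61 and highest in G48, as is the leukocyte sum, while Pik3ca stays between 50.8 and 61.85 CPM.

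The profiles nearest to these subunits over the 9 libraries were sought among 10762 genes with a mean of at least 5 CPM, as the root mean square difference of mean-centred log2 CPM. Nearest to Pik3cd were Arhgap9 and Hcls1, at 0.207 and 0.218 log2 units, where the profile of Pik3cd itself varied by 0.857. Nearest to Pik3cg were Fgd2 and Spi1, at 0.169 and 0.177, where Pik3cg varied by 0.638. For Inpp4b they were Hic1 and Apoe, at 0.187 and 0.219, where Inpp4b varied by 0.444. For Pik3r1, Tmem170b and Slc4a7 stood at 0.2 and 0.219, against its own 0.455. The other 4 members varied by 0.105 to 0.297, and their nearest profiles stood at 0.0495 to 0.112. Where a member varies little, a small difference alone says little, and nearness was not tested for any member.

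Pik3r1 encodes the regulatory subunit that stabilises the alpha, beta and delta catalytic subunits and docks them on phosphotyrosines. The gene (ENSRNOG00000018903) lies on chromosome 2 at 31745088 to 31826867 in the deposited table. It stood at 175.8, 101.5 and 109.9 CPM in TZG libraries G30, G31 and G48, at 99.8, 153.1 and 202.6 CPM in AIA libraries M2, M6 and M8, and at 85.1, 106.3 and 75.15 CPM in NC libraries C56, C59 and C61. All groups overlapped, since M2, G31 and C59 were close together. The log2 fold change was 0.77 in AIA against NC (95% interval 0.10 to 1.44, edgeR adjusted p = 0.26) and 0.54 in TZG against NC (95% interval -0.13 to 1.21, edgeR adjusted p = 0.26). In TZG against AIA it was -0.23 (edgeR adjusted p = 0.75), and the sign turned without M8, to 0.03. The value in AIA against NC was 0.51 without M8 and 0.40 without C61, M8 and G48, and that in TZG against NC was 0.26 without G30.

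Per length, Pik3r1 made up 36.6% to 53.1% of the summed FPKM of Pik3r1, Pik3r2 and Pik3r3 in TZG, 39.7% to 55.1% in AIA and 28.4% to 34.7% in NC. Every TZG and AIA library was above every NC library in this share. Its ratio to the summed catalytic FPKM was 0.656 to 1.32 in TZG, 1.02 to 1.5 in AIA and 1.06 to 1.09 in NC.

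Akt1, the AKT isoform found in most tissues, was close to level. The gene (ENSRNOG00000028629, chromosome 6 at 137218376 to 137236258) stood at 267.3, 289.4 and 268.6 CPM in TZG libraries G30, G31 and G48, at 233.6, 258 and 211.1 CPM in AIA libraries M2, M6 and M8, and at 252.1, 204.2 and 251.2 CPM in NC libraries C56, C59 and C61. TZG lay above both other groups without overlap, while AIA and NC overlapped. The log2 fold change was 0.23 in TZG against AIA (95% interval -0.07 to 0.53, edgeR adjusted p = 0.48) and 0.22 in TZG against NC (95% interval -0.08 to 0.52, edgeR adjusted p = 0.3).

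Akt2, the isoform best known for insulin-driven glucose uptake in fat and muscle, was lowest on average in TZG. The gene (ENSRNOG00000018677, chromosome 1 at 84411726 to 84450162) stood at 134.4, 109.7 and 94.9 CPM in TZG libraries G30, G31 and G48, at 157.9, 145.1 and 157.9 CPM in AIA libraries M2, M6 and M8, and at 123.8, 176.6 and 169.4 CPM in NC libraries C56, C59 and C61. TZG lay below AIA without overlap and overlapped with NC through C56. The log2 fold change was -0.44 in TZG against AIA (95% interval -0.83 to -0.05, edgeR adjusted p = 0.35) and -0.47 in TZG against NC (95% interval -0.86 to -0.08, edgeR adjusted p = 0.11), so that neither passed. Without C61, M8 and G48 these values were -0.30 and -0.29.

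The summed level of 8 adipocyte genes, all with reads in every library, was 1412 to 5954 CPM in TZG, 7167 to 10200 CPM in AIA and 3562 to 11580 CPM in NC. Akt2 was lowest in G48, as was that sum, and C56 was lowest in both within NC. The part of fat content in the Akt2 values was not tested. The ratio of Akt1 to Akt2 per length was 1.63, 2.17 and 2.32 in TZG libraries G30, G31 and G48, 1.21, 1.46 and 1.10 in AIA libraries M2, M6 and M8, and 1.67, 0.949 and 1.22 in NC libraries C56, C59 and C61.

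Inpp4b encodes the phosphatase that turns the bisphosphate product of PI3K signalling into a monophosphate. The gene (ENSRNOG00000018382) lies on chromosome 19 at 29597905 to 29968424 in the deposited table and held 123 to 345 reads a library. It stood at 12.6, 9.34 and 12.3 CPM in TZG libraries G30, G31 and G48, at 25.3, 21.8 and 15.9 CPM in AIA libraries M2, M6 and M8, and at 14, 11.3 and 10.85 CPM in NC libraries C56, C59 and C61. AIA lay above both other groups without overlap, with M8 the lowest of the 3 AIA libraries, and TZG and NC overlapped.

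In AIA against NC the means of Inpp4b were 21 ± 4.73 and 12 ± 1.72 CPM (log2 fold change 0.80 ± 0.21 SE). This did not pass in edgeR (adjusted p = 0.13; unadjusted p = 0.0044) or limma-voom (adjusted p = 0.25), and passed in DESeq2 (adjusted p = 0.022). In TZG against AIA the means were 11.4 ± 1.79 and 21 ± 4.73 CPM (log2 fold change -0.88 ± 0.21 SE), again past the threshold in DESeq2 (adjusted p = 0.025) and not in edgeR (adjusted p = 0.26; unadjusted p = 0.0025). TZG against NC gave a log2 fold change of -0.08 (95% interval -0.56 to 0.40, edgeR adjusted p = 0.84). With 1 library left out the first value ran from 0.64 to 0.97 and the second from -1.05 to -0.72, and without C61, M8 and G48 they were 0.89 and -1.09. AIA enters both comparisons, so that one set of AIA libraries gives both differences. In the authors' deposited table the q-values of Inpp4b are 0.151 in AIA against NC and 0.2 in TZG against AIA.

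Counted over the members, 0 of 8 passed in edgeR in AIA against NC, where 0.0133% of all tested genes did. At an unadjusted p under 0.05 there were 4 members in that comparison, all with higher values in AIA (Pik3cd, Pik3cg, Pik3r1 and Inpp4b), against 15% of all tested genes. DESeq2 called 2 of the 8, Pik3cd and Inpp4b, where it called 6.26% of all genes, and limma-voom called 0, against 0.00664% of all genes. In TZG against AIA 0 of 8 passed in edgeR, as did 0% of all tested genes. There 3 members had an unadjusted p under 0.05 (Pik3ca with a higher value in TZG, Akt2 and Inpp4b with lower ones), against 12.6% of all tested genes. DESeq2 called 1, Inpp4b, where it called 2.12% of all genes, and limma-voom called 0. DESeq2 and limma-voom each called Pik3cd and Pik3cg in TZG against NC, where they called 19.7% and 7.83% of all genes, and at an unadjusted edgeR p under 0.05 there were 3 members (Akt2 with a lower value besides), against 29.1%. By q-values under 0.05 in the authors' deposited table, 1 member passed in AIA against NC, 0 in TZG against AIA and 2 in TZG against NC, where 4.32%, 0.578% and 8.54% of the genes with a q-value did.

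Libraries of the compared groups did not overlap for 4 members in AIA against NC, for 5 in TZG against AIA and for 3 in TZG against NC, where this held for 20.5%, 23.4% and 32.6% of all tested genes. The median log2 fold change of the members was 0.57, 0.05 and 0.23 in these comparisons, in that order, and that of all tested genes was -0.01, 0.00 and -0.02. The comparisons share groups, so the members' values in them are not independent.

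A further 67 pathway genes listed by role were read beside the members, and all 67 were tested. For AIA against NC 0 of them passed in edgeR, and 11 had an unadjusted p under 0.05 (3 higher and 8 lower), against 15% of all tested genes. DESeq2 called 4 (2 higher and 2 lower), where it called 6.26% of all genes, and limma-voom called 0. In TZG against AIA 0 passed in edgeR, and 5 had an unadjusted p under 0.05, all lower, against 12.6% of all tested genes. DESeq2 and limma-voom called 0 there, where DESeq2 called 2.12% of all genes. In TZG against NC 8 passed in edgeR, 2 higher and 6 lower, which is a share near the 10.3% of all tested genes. The median log2 fold change of the 67 was -0.11 in this comparison.

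Among regulators of the class I enzymes, 1 gene rose and 1 fell in TZG against NC. Pik3ap1, an adaptor that links B cell and Toll-like receptors to PI3K, rose to 48.2 ± 4 CPM in TZG, against 21.2 ± 8.81 CPM in NC (log2 fold change 1.18 ± 0.31 SE, edgeR adjusted p = 0.045). The call was made in 1 of 9 fits with 1 library left out, the one without C59, with adjusted p of up to 0.12 in the others. Pik3ip1, a membrane protein that binds and inhibits the catalytic subunits, stood at 10.1, 6.71 and 12.7 CPM in TZG libraries G30, G31 and G48, at 15.8, 13 and 18.4 CPM in AIA libraries M2, M6 and M8, and at 24.55, 27.25 and 24.3 CPM in NC libraries C56, C59 and C61. The 3 groups did not overlap. Pik3ip1 fell in TZG against NC (log2 fold change -1.37 ± 0.23 SE, edgeR adjusted p = 0.016), and did so in all 9 fits with 1 library left out, at adjusted p from 0.021 to 0.047. Its values in AIA against NC and TZG against AIA, -0.69 and -0.68, did not pass (edgeR adjusted p = 0.2 and 0.32).

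In class II, whose enzymes make other phosphoinositides, Pik3c2b fell to 35.6 ± 5.12 CPM in TZG, against 72 ± 9.7 CPM in NC (log2 fold change -1.02 ± 0.15 SE, edgeR adjusted p = 0.014), and the call was made in all 9 fits with 1 library left out. Its value in AIA against NC was -0.78 (edgeR adjusted p = 0.094; DESeq2 adjusted p = 0.00028). Pik3c2g also passed as lower in TZG, but on 7 reads in TZG, 15 in AIA and 47 in NC, each summed over 3 libraries, and the call was lost without G30, G31, G48 or C56, at adjusted p of up to 0.071. Levels of Pik3c2b were 83 CPM in C61, the library rich in muscle, and 68.6 and 64.6 CPM in the other NC libraries.

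Of the phosphatases, Inpp5d, which encodes the leukocyte enzyme SHIP1, rose to 72.6 ± 8.47 CPM in TZG, against 39.5 ± 10.6 CPM in NC (log2 fold change 0.88 ± 0.21 SE, edgeR adjusted p = 0.037). The call was made without M2 or C61 and lost in the other 7 fits with 1 library left out, at adjusted p of up to 0.087. Inpp5d was highest in G48, at 81.8 CPM, and lowest in C61, at 27.5 CPM, as was the leukocyte sum given above. Between these ends the order of the libraries was not the same, and the part of leukocyte content in the Inpp5d values was not tested. Phlpp1, which removes an activating phosphate from AKT, fell by 0.43 on the log2 scale in TZG against NC (edgeR adjusted p = 0.049). That call was made in 1 of the 9 fits with 1 library left out, the one without C61, with adjusted p of up to 0.14 in the others. The remaining 7 listed phosphatases did not pass.

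No AKT substrate, mTORC1 gene, AKT-activating kinase, receptor or docking protein of the lists passed in edgeR. The 2 smallest p among substrates belonged to the transcription factor gene Foxo4 and the cell death gene Bad, with log2 fold changes of -0.75 in TZG against NC and -0.35 in AIA against NC (edgeR adjusted p = 0.13 and 0.31). Foxo4 was highest in the muscle-rich C61, at 108 CPM, and its value in TZG against NC was -0.35 without C61 and -0.42 without C61, M8 and G48. Among receptors and docking proteins the insulin receptor gene Insr stood at 73.5 ± 7.03 CPM in AIA and 49.1 ± 4.71 CPM in NC (log2 fold change 0.58 ± 0.15 SE, edgeR adjusted p = 0.13). For AKT-activating kinases the 2 smallest p belonged to Mapkap1 and Prr5, both of which encode parts of the mTORC2 complex, with log2 fold changes of -0.29 in AIA against NC and 0.33 in TZG against AIA (edgeR adjusted p = 0.24 and 0.42).

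Of 10 genes known as targets of the FOXO factors that AKT inactivates, 2 fell in TZG against NC. Fbxo32, a ubiquitin ligase gene known from muscle wasting, fell to 15.9 ± 4.37 CPM in TZG, against 33.9 ± 4.7 CPM in NC (log2 fold change -1.09 ± 0.20 SE, edgeR adjusted p = 0.019). It stood at 34.5 CPM in C61 and at 38.3 and 29 CPM in C56 and C59, and without C61, M8 and G48 the value was -1.28 (edgeR adjusted p = 0.015). The call was lost without G30 or C56, at adjusted p of up to 0.06. The stress response gene Sesn1 fell by 0.47 on the log2 scale (edgeR adjusted p = 0.049), a call that was lost in each of the 9 fits with 1 library left out, at adjusted p from 0.061 to 0.13. The other 8 did not pass, and the median of the 10 was -0.20. Among the pathway calls in TZG against NC, that of Inpp5d was lost without C61, M8 and G48 (log2 fold change 0.59, edgeR adjusted p = 0.059). Those of Pik3ip1, Pik3ap1, Pik3c2b, Pik3c2g, Phlpp1 and Sesn1 were kept in that fit, at edgeR adjusted p from 0.0069 to 0.044.

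**Figure D5:**
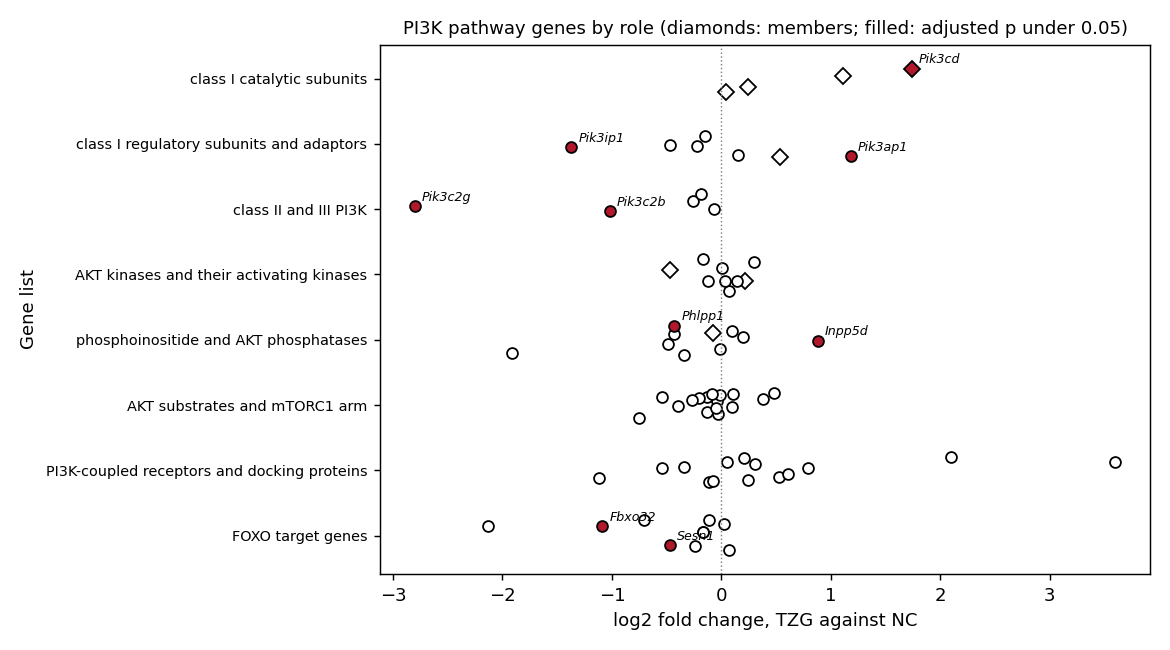
Log2 fold changes in TZG against NC (x axis) of the 8 members (diamonds) and 67 further pathway genes (circles) by role (y axis), with a filled symbol for an adjusted p under 0.05. Pik3cd at 1.74, Pik3ap1 at 1.18 and Inpp5d at 0.88 are filled on the higher side, and 6 genes on the lower side.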

How the data were processed

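RNA sequencing of synovium from Lewis rats was analysed from the series' table. Per the file headers, the authors deposited integer counts of reads for each gene, with no normalisation, beside FPKM values. The deposited FPKM follow from the counts, library totals and one length for each gene. Group mean FPKM of the authors matched the mean over the columns of a letter, recomputed from counts, to a relative difference of at most 0.00073. The authors' deposited log2 fold changes and q-values are quoted where named. StringTie 1.3.3b, edgeR 3.30.3, HISAT2 and fastp appear in the submitters' processing notes, which do not say what each did. The sources used here do not give build, annotation or counting strand. The series' 2 tables are identical, and 4 FPKM columns placed by letter alone were not used.

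Counts were tested with edgeR 4.0.16 (R 4.3.3; TMM factors, filterByExpr, robust quasi-likelihood fit) in one fit of all 9 libraries with a mean per group. P-values were adjusted by Benjamini-Hochberg over 15068 genes, with a threshold of 0.05. Standard errors were derived from the F statistic and the log2 fold change. The step was tested on simulated data. FPKM was recomputed from counts and recovered lengths. Alternatives were RLE factors, no filter on low counts, DESeq2 1.42.0, limma-voom (limma 3.58.1), a fit of 2 groups, the 5 columns matched by number, and leaving out each library. A fit without C61, M8 and G48 was added after seeing the data. Every 2 libraries differed by more than sampling noise. A gene with 0 reads could have up to 3, or 0.183 to 0.239 CPM, by counting error alone.

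The members, gene lists and tests were chosen with earlier results of these data known. Named genes are all members and, from each role list, up to 3 genes past the threshold per comparison or, where none passed, the 2 smallest p. Some marker symbols, among them Cd79a, Myh2, Myh1 and Pecam1, matched no row. Some listed genes that the rule names are not reported here. Sequences are RefSeq's for GRCr8, matched by symbol. The motif was first searched in windows ending 30 bases after the start site, and the windows were extended to 50 after that result was seen; both are reported.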

Additional observations from a re-analysis of the deposited data

How the results depend on the processing

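Of 24 log2 fold changes (8 members in 3 comparisons), 18 kept their sign under every alternative and 6 did not, each of these with an edgeR adjusted p of at least 0.75. With only the columns matched by number the reversed values were -0.25 for Pik3cd and 0.20 for Pik3r1 in TZG against AIA, 0.13 for Akt1 in AIA against NC and 0.07 for Inpp4b in TZG against NC. Without C61, M8 and G48 they were 0.14 for Pik3r1 in TZG against AIA, and 0.10 for Akt1 and 0.01 for Akt2 in AIA against NC. With 1 library left out, values ran in TZG against AIA from -0.30 to 0.10 for Pik3cb, from -0.01 to 0.46 for Pik3cd and from -0.51 to 0.03 for Pik3r1, in AIA against NC from -0.11 to 0.06 for Akt1 and from -0.18 to 0.07 for Akt2, and in TZG against NC from -0.15 to 0.05 for Inpp4b.

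In AIA against NC, TZG against AIA and TZG against NC, DESeq2 called 2, 1 and 2 members and 940, 300 and 2951 genes of all, against 0, 0 and 1 members and 2, 0 and 1555 genes in the edgeR test; it also called 4 further pathway genes in AIA against NC and 12 in TZG against NC. Limma-voom called 2 members in TZG against NC and 1 gene of all in AIA against NC. In TZG against NC the further pathway genes numbered 8 in the edgeR test, 6 with RLE factors or limma-voom, 5 without a filter on low counts and 4 in a fit of 2 groups, where 763 genes of all passed. In AIA against NC 4 genes of all passed without a filter on low counts and 1 in a fit of 2 groups. With only the columns matched by number, which leaves 1 library in TZG and 1 in AIA that are assumed to vary like NC, 0 members, 0 pathway genes and 0 genes of all passed in TZG against NC and 0 genes of all in AIA against NC. Without C61, M8 and G48, 180 genes of all passed in AIA against NC, 1 in TZG against AIA and 2156 in TZG against NC. The cause of these shifts was not tested.

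With 1 library left out, the members called ranged from 0 to 2 in TZG against NC and stayed at 0 in the other comparisons. The pathway genes called ranged from 2 to 8 in TZG against NC and stayed at 0 in the others. All genes called ranged from 0 to 98 in AIA against NC, from 335 to 1314 in TZG against NC and stayed at 0 in TZG against AIA. The share of Pik3cd and Pik3cg ranged from 57.7% to 62.3% in TZG, from 55.1% to 61.1% in AIA and from 33.2% to 40.6% in NC, and was 58.1%, 55.8% and 34.8% in these groups when set from CPM without gene length. No paired analysis was possible because the labels give no pairing of samples between groups.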
